A study of Anser cygnoides with 4 samples.

Results

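The HOX genes are described here across 3 cell classes of goose leg muscle. All gene symbols made of HOX, a cluster letter from A to D and a number were taken, which gave 37 of the 25487 genes in the tables: 11 HOXA, 10 HOXB, 9 HOXC and 7 HOXD genes. The cells came from the leg muscle of female Zhedong White goose embryos (Anser cygnoides) at embryonic day 13 (E13), 15 (E15), 18 (E18) and 23 (E23), with 1 droplet library (10x Genomics, 3′ end) per day. By the labels each library pooled 3 embryos. Muscle was digested, plated on dishes to let fibroblasts attach and so enrich skeletal muscle satellite cells, frozen, and thawed before capture, so the share of each cell class is set by the enrichment and not by the tissue alone. Cells were placed in classes by their counts of unique molecular identifiers (UMIs, 1 per captured RNA molecule). Fibro-adipogenic progenitors (FAPs, the connective tissue progenitors of muscle) had at least 5 UMIs of DCN, at least 5 of COL6A3 and 0 of PAX7 and MYOG. Myocytes (differentiating muscle cells) had at least 2 UMIs of MYOG and at least 10 of ACTC1. Satellite cells (muscle stem and progenitor cells) had at least 2 UMIs of PAX7 and 0 of MYOG. This gave 5090 FAPs, 8683 myocytes and 11896 satellite cells of 44473 cells kept.

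HOX genes encode homeodomain transcription factors that give cells their position along the body axis. They lie side by side in clusters, numbered so that low paralog numbers are expressed towards the head and high numbers towards the tail, and the paralogs numbered 9 and above also pattern the limb from shoulder or hip to digits. Hindlimb muscle is built by cells of different origins, since myogenic cells migrate into the limb bud from the somites and connective tissue arises from the lateral plate. HOXC9, HOXC10 and HOXC11 are known as hindlimb-type genes in vertebrate embryos, and in chick limb muscle precursors HOXA11 and HOXA13 mark regions along the limb.

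Class labels were checked with markers that the gates did not use. PDGFRA, a receptor typical of FAPs, was at 57.6 to 92.7 CPM (UMIs of the gene, scaled to a common total of UMIs of the summed cells) in FAPs, 0.148 to 0.536 CPM in myocytes and 0.923 to 1.62 CPM in satellite cells. MYOD1, a myogenic transcription factor, was at 3.14 to 12.9 CPM in FAPs, 1024 to 1565 CPM in myocytes and 282 to 935 CPM in satellite cells. All 4 FAP markers together, with the gate genes DCN and COL6A3 among them, nevertheless came to 498 to 737 CPM in satellite cells. In FAPs they came to 2622 to 3534 CPM, a level that the gate helps to set. PAX7, a gate gene of satellite cells, was also present in myocytes, at 51.1 to 268 CPM, against 426 to 758 CPM in satellite cells. Tendon markers (3 genes) summed to 1.78 to 10.9 CPM in FAPs, 1.93 to 10.1 CPM in myocytes and 8.28 to 88.0 CPM in satellite cells. Schwann cell markers (3 genes) came to 0 to 0.290 CPM in FAPs, 6.27 to 15.9 CPM in myocytes and 0.0917 to 1.02 CPM in satellite cells, and cartilage markers (3 genes) to 29.2 to 108 CPM, 10.6 to 32.4 CPM and 25.1 to 62.8 CPM in the same classes. The part of these cells in the HOX differences was not tested. Library totals ran from 128674910 to 155367545 UMIs, and pairs of libraries shared 21 to 39 cell barcodes. Median UMIs per cell by library were 14585.5 to 19815 in FAPs, 6622 to 9710.5 in myocytes and 9110.5 to 11972.5 in satellite cells. The E13 library stood apart in stress genes: HMOX1, heme oxygenase, was at 1213 CPM in FAPs, 3750 CPM in myocytes and 1917 CPM in satellite cells at E13, against 46.8 to 99.1 CPM over the other 3 libraries. Its part in the HOX levels was not tested, and results without E13 are given beside the counts.

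HOX RNA was on average least abundant in FAPs and most abundant in satellite cells. Summed over the 37 genes it came to 103, 93.3, 166 and 74.6 CPM in FAPs at E13, E15, E18 and E23. In myocytes the sums were 95.2, 241, 279 and 221 CPM, and in satellite cells 197, 496, 400 and 156 CPM. The mean was 109 ± 39.4 CPM in FAPs, 209 ± 79.6 CPM in myocytes and 312 ± 162 CPM in satellite cells (SD over 4 libraries of different days). In each of the 4 libraries FAPs were below satellite cells, whereas myocytes were above satellite cells at E23 and below them on the other days. A count was seen for 34 members in FAPs, 35 in myocytes and 35 in satellite cells, and a mean of at least 10 CPM was reached by 3, 7 and 9 members in the same classes. HOXB13 was at 0 in all 12 sums.

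The clusters did not contribute equally. HOXA genes summed to a mean of 79.3 CPM in FAPs, 164 CPM in myocytes and 165 CPM in satellite cells. HOXC genes summed to 23.2 CPM in FAPs, 35.9 CPM in myocytes and 124 CPM in satellite cells. The HOXC sum of satellite cells was above those of FAPs and myocytes in each library. The gap to myocytes was smallest at E23, with 52.2 CPM in myocytes and 62.7 CPM in satellite cells. Among HOX UMIs, HOXC took 14.7% to 27.3% in FAPs, 13.5% to 23.7% in myocytes and 29.7% to 44.8% in satellite cells over the libraries, and the range of satellite cells did not overlap the others. HOXB genes came to 0.567 CPM in FAPs, 4.68 CPM in myocytes and 14.5 CPM in satellite cells. HOXD genes were low in each class, at 6.21 CPM in FAPs, 4.62 CPM in myocytes and 8.95 CPM in satellite cells, yet took the larger share of HOX UMIs in FAPs (5.88% on average, against 2.73% in myocytes and 2.79% in satellite cells). By paralog number the shares were more alike: paralogs 9 to 13 held 44.2% of HOX UMIs in FAPs, 48.3% in myocytes and 50.5% in satellite cells.

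**Figure D1:**
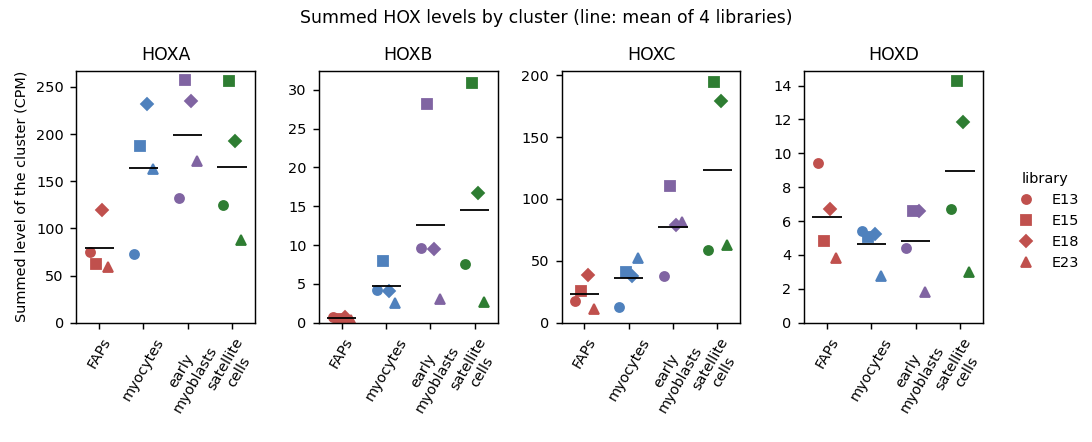
Summed CPM of the HOXA, HOXB, HOXC and HOXD genes (vertical axes, each from 0) in FAPs, myocytes, early myoblasts and satellite cells (horizontal axis), with a point per library and a line at the mean of 4 libraries. HOXC averaged 23.2 CPM in FAPs and 124 CPM in satellite cells, whereas HOXA averaged 164 CPM in myocytes and 165 CPM in satellite cells.

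**Figure D2:**
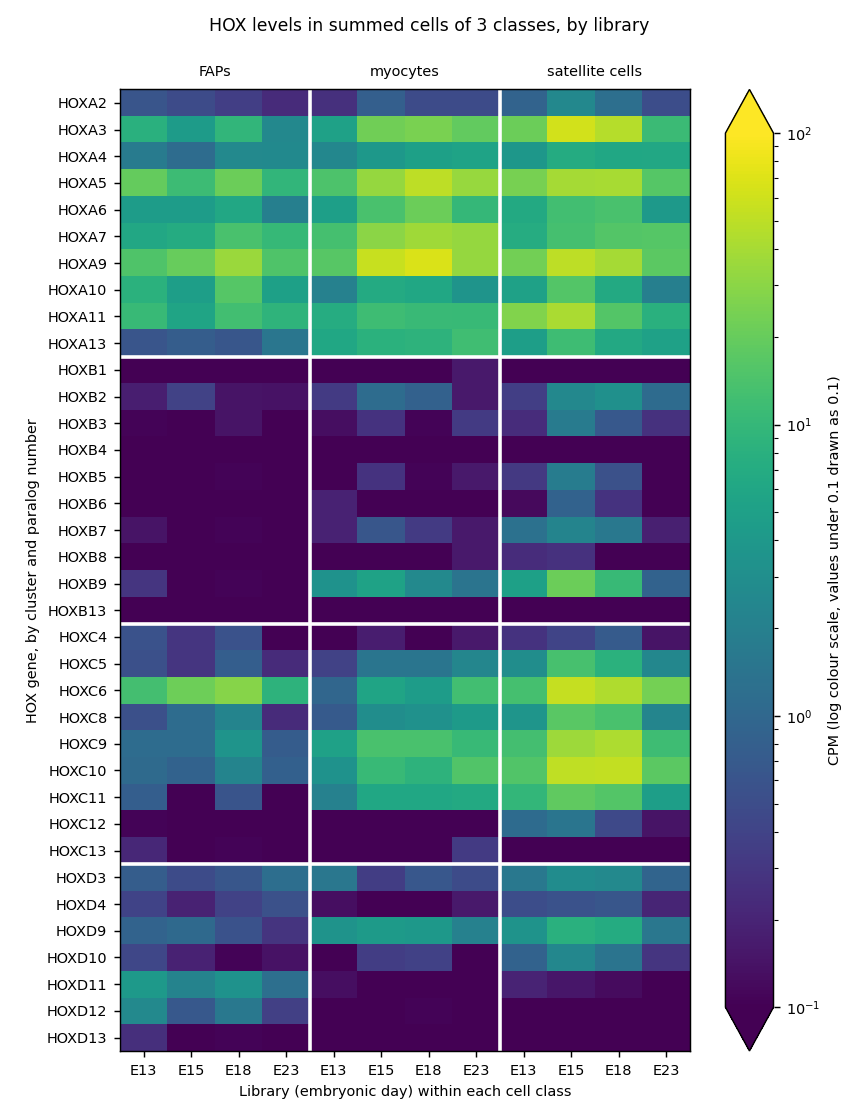
CPM of 36 of the 37 HOX genes (rows, by cluster and paralog number) in the summed cells of each library (columns), for FAPs, myocytes and satellite cells, on a log colour scale with values under 0.1 CPM drawn as 0.1. Within each library, HOXB9, HOXC9, HOXC10 and HOXC11 are darker in FAPs than in satellite cells, and HOXD11 and HOXD12 are lighter in FAPs than in satellite cells.

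Differences between classes were tested with edgeR on the 12 sums of 3 classes in 4 libraries, with the library as a block, and p-values were adjusted over 14598 genes. Of the 37 members, 26 passed the filter on low counts. Of these, 6 (HOXB2, HOXB7, HOXC4, HOXD4, HOXD10 and HOXD11) would not have passed without the class in which they were highest. Calls of these 6 are therefore no separate support for a difference between classes. A library is the only sample of its day, so the spread includes any change over days in the difference between classes. In FAPs against satellite cells, 14 of the 26 were lower, where 19.7% of all tested genes were lower, and 1 was higher, where 19.8% of all tested genes were higher. The median log2 fold change was -1.31 over the 26 and 0.00 over all tested genes. Among the 20 members that would pass the filter without their highest class, 11 were lower, and the higher one, HOXD11, was not among them. In 12 of the 26 the values of FAPs and satellite cells did not overlap over the libraries, 11 of them lower in FAPs, where 13.2% of all tested genes were lower and 7.27% higher without overlap. By cluster, 4 of 11 HOXA, 3 of 3 HOXB, 5 of 7 HOXC and 2 of 5 HOXD genes tested were lower in FAPs. HOXB2, HOXB7 and HOXD10 are among the 6 named above, which leaves HOXB9 alone in HOXB and HOXD9 alone in HOXD. Without the E13 library 15 were lower and 2 higher of 25 tested. Scaling by total counts alone shifted the median of all genes by -0.13 (log2), made 35.6% of all calls higher ones where TMM scaling made 50.2%, and called 15 members lower and 1 higher. With cells that carried markers of another class removed by stricter gates (satellite cells with at most 1 UMI of DCN among them), 12 of 22 tested were lower in FAPs.

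Most HOXC genes were lower in FAPs than in satellite cells. HOXC10, a gene of the lumbar region and hindlimb, was at 1.08, 0.870, 2.28 and 0.840 CPM in FAPs at E13, E15, E18 and E23, at 3.42, 10.4, 8.58 and 15.4 CPM in myocytes, and at 15.4, 52.0, 53.3 and 17.5 CPM in satellite cells. The highest FAP value thus lay below the lowest satellite cell value, and the log2 fold change was -4.44 ± 0.49 (SE, edgeR adjusted p = 0.000405). HOXC9, its neighbour on the side of lower paralog numbers, was at 1.15, 1.16, 3.53 and 0.747 CPM in FAPs, 5.17, 13.9, 13.9 and 10.6 CPM in myocytes, and 12.5, 36.6, 42.2 and 11.7 CPM in satellite cells, again with no overlap between FAPs and satellite cells (log2 fold change -3.75 ± 0.34, edgeR adjusted p = 0.000167). HOXC11, the next gene on the other side, was at 0.793, 0.0966, 0.606 and 0.0933 CPM in FAPs, 2.07, 6.09, 6.06 and 6.59 CPM in myocytes, and 9.58, 18.6, 16.0 and 4.80 CPM in satellite cells (log2 fold change for FAPs over satellite cells -4.53 ± 0.66, edgeR adjusted p = 0.00122). HOXC5 and HOXC8, which carry lower numbers and are known from the neck and trunk, were lower in FAPs too, by log2 fold changes of -3.38 ± 0.61 and -2.91 ± 0.60 (edgeR adjusted p = 0.00327 and 0.00602). All 5 calls held under each of the 13 alternatives run for these genes.

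HOXC6 did not pass this test. It was at 12.8, 21.6, 28.4 and 8.68 CPM in FAPs, 0.969, 5.62, 4.56 and 12.4 CPM in myocytes, and 13.0, 55.0, 44.3 and 23.6 CPM in satellite cells. FAPs and satellite cells overlapped (log2 fold change -0.63 ± 0.52, edgeR adjusted p = 0.361), and HOXC6 gave most of the HOXC UMIs of FAPs, with a mean of 17.9 CPM of the 23.2 CPM summed over HOXC. HOXC4 was low in the 3 classes, with a highest library value of 0.733 CPM, and FAPs did not pass the test against satellite cells (edgeR adjusted p = 0.825). HOXC6 was lower in FAPs in each of the 4 libraries, by the least at E13 (12.8 against 13.0 CPM), and the HOXC genes numbered 8 to 11 were at most 3.53 CPM in FAPs.

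In the HOXA cluster the lower calls in FAPs fell on HOXA2, HOXA3, HOXA4 and HOXA13, and those in between did not pass. HOXA13, the gene of the most distal limb domain in vertebrate embryos, was at 0.613, 0.773, 0.642 and 1.49 CPM in FAPs, 6.13, 8.16, 8.58 and 12.05 CPM in myocytes, and 4.87, 11.8, 6.54 and 5.25 CPM in satellite cells. FAPs were below both myogenic classes in each library, with a log2 fold change of -2.86 ± 0.33 against satellite cells (edgeR adjusted p = 0.000454). HOXA3, a gene of the neck region, was at 8.01, 4.44, 9.38 and 2.52 CPM in FAPs, 5.23, 22.2, 24.8 and 19.3 CPM in myocytes, and 21.2, 62.0, 46.1 and 10.9 CPM in satellite cells. Its log2 fold change for FAPs over satellite cells was -2.18 ± 0.55 (edgeR adjusted p = 0.0139), and the call was lost without the E15 or the E18 library, with adjusted p up to 0.078. HOXA4 (-1.35 ± 0.24, edgeR adjusted p = 0.00318) and HOXA2 (-1.27 ± 0.37, edgeR adjusted p = 0.0262) were lower in FAPs as well, HOXA2 again not without E15 or E18 and with no more than 2.53 CPM in a library. In the annotation the gene model of HOXA3 overlaps HOXA4, HOXA5 and HOXA6, that of HOXB3 overlaps HOXB4, HOXB5 and HOXB6, and that of HOXD3 overlaps HOXD4, so the split of reads between them is uncertain.

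The HOXA genes from HOXA5 to HOXA11 together carried most HOX RNA of FAPs. HOXA9, the member with the highest mean in FAPs and in myocytes, was at 15.0, 20.2, 34.9 and 14.8 CPM in FAPs, 16.6, 55.8, 67.8 and 33.6 CPM in myocytes, and 23.0, 50.9, 39.2 and 17.4 CPM in satellite cells. FAPs and satellite cells overlapped (log2 fold change -0.46 ± 0.25, edgeR adjusted p = 0.178), as they did for HOXA5, which is known from trunk and lung in mouse. HOXA5 was at 19.5, 11.4, 21.0 and 9.42 CPM in FAPs, 14.6, 33.6, 49.9 and 34.5 CPM in myocytes, and 24.1, 39.0, 40.2 and 16.4 CPM in satellite cells (FAPs over satellite cells, edgeR adjusted p = 0.106). HOXA6 was at 4.54, 4.54, 6.28 and 1.96 CPM in FAPs, 4.97, 13.8, 21.2 and 9.96 CPM in myocytes, and 6.57, 12.5, 13.8 and 4.16 CPM in satellite cells (edgeR adjusted p = 0.0506 for FAPs over satellite cells). These 3 genes were lower in FAPs in each of the 4 libraries without passing the threshold. HOXA11, a gene of the middle limb segment, was at 10.5, 5.70, 12.4 and 8.96 CPM in FAPs, 7.23, 11.8, 10.8 and 10.6 CPM in myocytes, and 27.1, 41.5, 15.8 and 8.00 CPM in satellite cells, so that FAPs were lower at E13, E15 and E18 and higher at E23 (edgeR adjusted p = 0.109). HOXA10, which lies between HOXA9 and HOXA11, averaged 8.53 ± 5.26 CPM in FAPs, 4.62 ± 2.20 CPM in myocytes and 7.39 ± 5.96 CPM in satellite cells (SD over 4 libraries) and passed no test.

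HOXB RNA was scarce in FAPs. HOXB9, the most abundant HOXB gene, was at 0.289, 0, 0.107 and 0 CPM in FAPs (11 UMIs in 5090 cells), 3.36, 5.39, 2.58 and 1.45 CPM in myocytes, and 5.03, 21.4, 10.4 and 0.882 CPM in satellite cells. FAPs did not overlap either myogenic class, and the log2 fold change against satellite cells was -5.69 ± 0.73 (edgeR adjusted p = 0.000687). HOXB7 and HOXB2 were lower in FAPs too, at log2 fold changes of -3.76 ± 0.57 and -2.76 ± 0.51 (edgeR adjusted p = 0.00146 and 0.00354), with means of 0.0628 and 0.212 CPM in FAPs and 1.34 and 1.79 CPM in satellite cells. Neither would have passed the filter on low counts without satellite cells, so these calls are no separate support. The other 7 HOXB genes were not tested, and their highest value in any sum was 1.82 CPM, for HOXB5 in satellite cells at E15. With no filter on low counts HOXB3 (-2.46 ± 0.64) and HOXB5 (-3.14 ± 0.87) were lower in FAPs than in satellite cells (edgeR adjusted p = 0.0189 and 0.0247). Their means in FAPs were 0.0869 and 0.0384 CPM, and no other of these genes passed that test. HOXB8 had 0 UMIs in FAPs and 18 in satellite cells. Its pooled level in satellite cells was 3.94 times the floor of 3 counts over the 4 FAP sums. This ratio leaves out the counting error of the 18 UMIs.

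HOXD genes ran in both directions. HOXD11, a gene of the forearm and shank region in mouse, was at 4.15, 2.22, 3.35 and 1.26 CPM in FAPs, 0.129, 0, 0.0536 and 0 CPM in myocytes, and 0.198, 0.151, 0.122 and 0.0615 CPM in satellite cells. FAPs lay above both myogenic classes in each library, and the log2 fold change was 4.43 ± 0.40 against satellite cells and 6.004 ± 0.52 against myocytes (edgeR adjusted p = 0.000163 and 2.35e-05). It was called in each of the 12 alternatives that could test it, which do not include cells thinned to 4000 UMIs. HOXD11 passed the filter on low counts only through FAPs, so these calls are no separate support. HOXD12, the next gene towards the digit end of the cluster, had 71, 7, 44 and 8 UMIs in FAPs (2.56, 0.676, 1.57 and 0.373 CPM), 3 UMIs in all myocytes and 1 in all satellite cells, and was left out by the filter on low counts. With no such filter its log2 fold change was 6.61 ± 0.67 against satellite cells (edgeR adjusted p = 0.000118). HOXD9, by contrast, was at 0.902, 1.06, 0.571 and 0.280 CPM in FAPs, 3.49, 4.33, 4.02 and 2.09 CPM in myocytes, and 3.48, 8.13, 7.03 and 1.54 CPM in satellite cells, lower in FAPs than in both myogenic classes (log2 fold change against satellite cells -2.61 ± 0.31, edgeR adjusted p = 0.000528). HOXD10 was lower in FAPs than in satellite cells (-2.03 ± 0.69, edgeR adjusted p = 0.0441), but not without E15, E18 or E23. Without satellite cells HOXD10 would not have passed the filter.

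**Figure D3:**
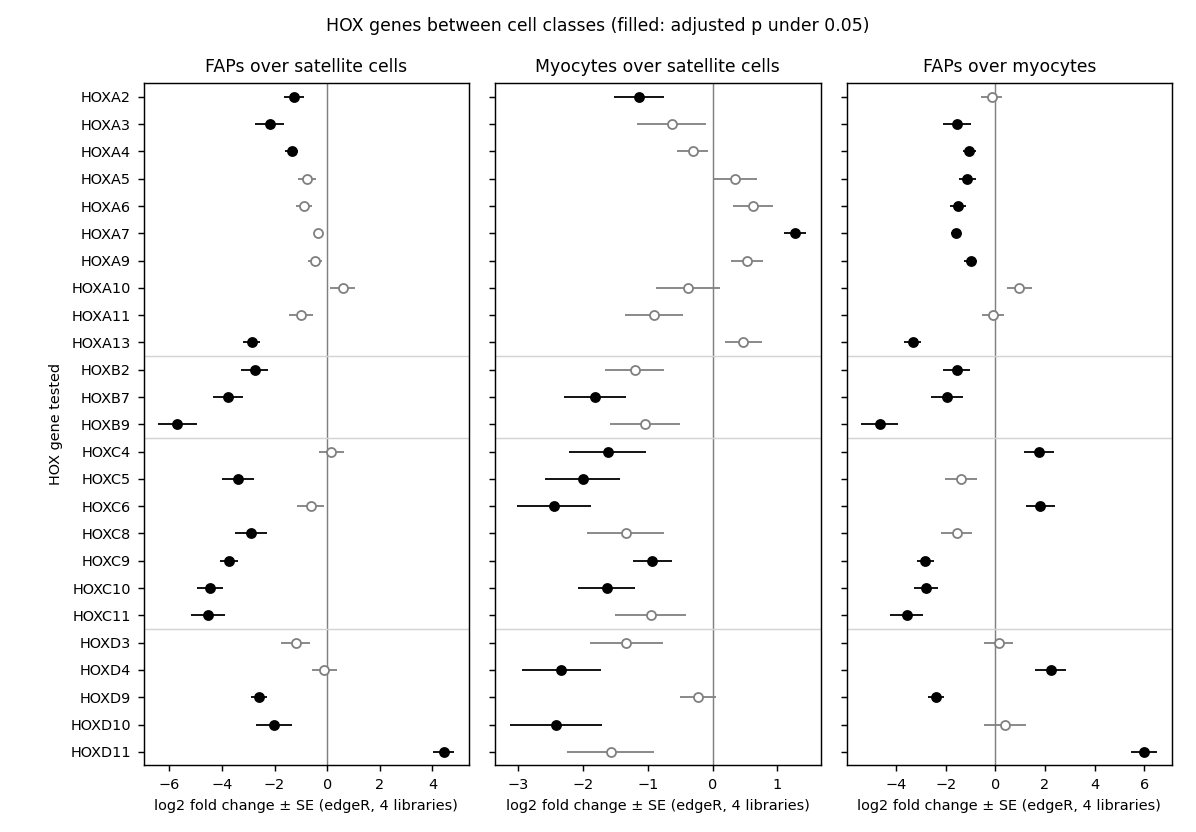
Log2 fold changes with standard errors (horizontal axes) of 25 of the 26 HOX genes that could be tested (rows, by cluster), for FAPs over satellite cells, myocytes over satellite cells and FAPs over myocytes, from edgeR on 4 libraries. Filled points passed an adjusted p of 0.05; HOXD11 stands at 4.43 and HOXB9 at -5.69 in FAPs over satellite cells.

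In myocytes against satellite cells, 10 of the 26 were lower, where 24.0% of all tested genes were lower, and 1 was higher, where 24.0% of all tested genes were higher. The median log2 fold change was -1.09 over the 26 and 0.00 over all tested genes, and among the 20 members that would pass the filter without their highest class 6 were lower and 1 higher. The values of myocytes and satellite cells did not overlap for 5 of the 26, all 5 lower in myocytes, where 15.5% of all tested genes were lower and 9.88% higher without overlap. Most lower calls were lost without E15 or E18: by edgeR 0 were lower without the E15 library (8 at an unadjusted p under 0.05) and 1 without the E18 library. The share of all tested genes called in those fits is not given, and whether the drop is particular to HOX genes was not tested. DESeq2 on all libraries called 9 lower, and without E13 edgeR called 7 lower and 3 higher of 25 tested. Scaling by total counts alone shifted the median of all genes by -0.17 (log2), made 35.7% of all calls higher ones where TMM scaling made 50.0%, and called 11 members lower and 1 higher.

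HOXA7 was the member that was higher in myocytes. It was at 12.9, 30.0, 37.1 and 33.6 CPM in myocytes and 7.12, 12.9, 15.9 and 16.2 CPM in satellite cells, which made it higher in myocytes in each library (log2 fold change 1.27 ± 0.17, edgeR adjusted p = 0.000534), and the call held under all 13 alternatives. In FAPs it was at 6.24, 7.05, 13.8 and 10.1 CPM, below satellite cells in each library without passing the test (edgeR adjusted p = 0.144). Its neighbours HOXA5, HOXA6 and HOXA9 had log2 fold changes of 0.34 ± 0.34, 0.62 ± 0.31 and 0.53 ± 0.25 for myocytes over satellite cells and did not pass (edgeR adjusted p from 0.116 to 0.441). HOXA13, at 0.47 ± 0.29, did not pass either (edgeR adjusted p = 0.206). HOXC6 showed the widest fall in myocytes, with a log2 fold change of -2.44 ± 0.57 against satellite cells (edgeR adjusted p = 0.00783), and HOXC10 (-1.63 ± 0.44) and HOXC9 (-0.93 ± 0.30) were lower as well (edgeR adjusted p = 0.0142 and 0.0315). The other lower members included HOXA2, HOXB7, HOXC4, HOXC5, HOXD4 and HOXD10, at means of at most 1.43 CPM in myocytes and edgeR adjusted p from 0.0126 to 0.0496. Of these, HOXB7, HOXC4, HOXD4 and HOXD10 would not have passed the filter on low counts without satellite cells. HOXC genes thus made up 5 of the 10 lower members and 7 of the 26 tested, and HOXC8 and HOXC11 (edgeR adjusted p = 0.0917 and 0.184) did not pass. All 5 HOXC calls were lost without the E15 library.

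In FAPs against myocytes, 14 of the 26 were lower, where 32.7% of all tested genes were lower, and 5 were higher, where 32.1% of all tested genes were higher. Among the 20 members that would pass the filter without their highest class, 12 were lower and 2 higher, with HOXC4, HOXD4 and HOXD11 not among them. FAPs and myocytes did not overlap for 10 of the 26, with 7 lower and 3 higher in FAPs, where 19.2% and 21.0% of all tested genes were lower and higher without overlap. The median log2 fold change was -1.25 over the 26 and -0.01 over all tested genes, and without the E13 library 14 were lower and 3 higher of 25 tested. Both contrasts with FAPs share the FAP sums, so their values are not independent. Among the higher members were HOXC4, HOXC6, HOXD4 and HOXD11. HOXC6 was at 12.8 against 0.969, 21.6 against 5.62, 28.4 against 4.56 and 8.68 against 12.4 CPM in FAPs and myocytes by day (1.81 ± 0.58, edgeR adjusted p = 0.0220), a call that was lost without E13, E15 or E18. HOXC4 (1.77 ± 0.61, edgeR adjusted p = 0.0313) was not called without E13, and HOXD4 (2.23 ± 0.64, edgeR adjusted p = 0.0139) not without E18.

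The lower members in FAPs against myocytes included most of the middle of the HOXA cluster. HOXA7 had a log2 fold change of -1.60 ± 0.17 (edgeR adjusted p = 6.57e-05), HOXA6 of -1.51 ± 0.32 (edgeR adjusted p = 0.00321), HOXA9 of -0.99 ± 0.26 (edgeR adjusted p = 0.00832) and HOXA4 of -1.04 ± 0.25 (edgeR adjusted p = 0.00538). HOXA3 and HOXA5 were lower too, at -1.55 ± 0.56 and -1.12 ± 0.36, but were not called without E15, E18 or E23. HOXA13 stood at -3.33 ± 0.33 (edgeR adjusted p = 4.19e-05). From the other clusters HOXB2, HOXB7, HOXB9, HOXC9, HOXC10, HOXC11 and HOXD9 were lower, HOXB9 the most at -4.65 ± 0.75 (edgeR adjusted p = 0.000658) and HOXC9 at -2.82 ± 0.34 (edgeR adjusted p = 0.000126). The call of HOXB2 was lost without E15, E18 or E23 and that of HOXB7 without E18 or E23. HOXA10 and HOXA11 did not pass here (edgeR adjusted p = 0.123 and 0.865), with log2 fold changes of 0.96 ± 0.50 and -0.09 ± 0.44.

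The 11 members that were not tested were HOXB1, HOXB3, HOXB4, HOXB5, HOXB6, HOXB8, HOXB13, HOXC12, HOXC13, HOXD12 and HOXD13. Apart from HOXD12 they stayed at or below 1.82 CPM in each of the 12 sums. HOXC12, the neighbour of HOXC11, was at 0.108, 0, 0 and 0.0467 CPM in FAPs, 0.0646, 0.0990, 0 and 0 CPM in myocytes, and 1.11, 1.47, 0.458 and 0.144 CPM in satellite cells, above both other classes in each library. With no filter on low counts its log2 fold change was -3.74 ± 0.70 for FAPs and -3.85 ± 0.71 for myocytes over satellite cells (edgeR adjusted p = 0.00348 and 0.00228). HOXD13 had 10 UMIs in FAPs, 1 in myocytes and 1 in satellite cells, and HOXB1 1 UMI in all 3 classes. HOXB4, with 4 UMIs in all, is one of the genes whose model overlaps that of HOXB3.

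Early myoblasts, with at least 2 UMIs of MYOG and fewer than 10 of ACTC1, were described as a stage between satellite cells and myocytes and were not tested. Their HOX sum was 184, 403, 330 and 259 CPM at E13, E15, E18 and E23, with a mean of 294 ± 94.0 CPM (SD over 4 libraries). HOXC genes came to 37.8, 111, 78.9 and 81.7 CPM in them, which lay between the 12.8, 40.7, 37.9 and 52.2 CPM of myocytes and the 58.6, 195, 179 and 62.7 CPM of satellite cells at E13, E15 and E18, and above both at E23. HOXA genes averaged 199 CPM in early myoblasts, 164 CPM in myocytes and 165 CPM in satellite cells. HOXA7 averaged 24.3 CPM in early myoblasts, with 28.4 CPM in myocytes and 13.0 CPM in satellite cells.

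Change over days was described for members with a mean of at least 5 CPM in a class, as the ratio of E23 to E13, with no test because each day had 1 library. In myocytes 11 members reached that level and 9 of them were higher past 2-fold at E23, where 12.1% of all genes at that level were, while 0 were lower, where 4.35% of all genes were. All 11 were lowest at E13, the library with high HMOX1. The share of all genes that were lowest or highest in a given library is not given, so such counts describe the members only. HOXC6 had the largest log2 ratio among the 11 (3.67, with 12.4 CPM at E23 and 0.969 CPM at E13), followed by HOXC10 (2.17), HOXA3 (1.88), HOXC11 (1.67), HOXA7 (1.38), HOXA5 (1.24), HOXC9 (1.04), HOXA9 (1.02) and HOXA6 (1.002). HOXA13 (0.97) and HOXA11 (0.55) stayed inside 2-fold. With E15 in place of E13 as the start, 1 member of myocytes, HOXC6, was higher past 2-fold, where 14.6% of all genes were, and 0 were lower, where 5.96% were.

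Satellite cells had 17 members at that level, 12 of which were highest at E15 and 12 lowest at E23. These counts too have no share over all genes beside them and describe the members only. Past 2-fold at E23 against E13, 4 were lower, where 4.08% of all genes were, and 1 was higher, where 9.86% of all genes were. HOXB9 had the lowest log2 ratio (-2.51, with 0.882 CPM at E23 and 5.03 CPM at E13), and HOXA11 (-1.76), HOXA10 (-1.41) and HOXD9 (-1.18) were the others. HOXA7 was the member past 2-fold in the other direction (1.18). HOXC11 stayed just inside 2-fold, at -0.997. Against E15 instead, 15 of the 17 were lower past 2-fold at E23, where 6.70% of all genes were, and 0 higher, where 10.5% of all genes were. The remaining members, HOXA4 and HOXA7, were at 6.21 and 16.2 CPM at E23, against 6.96 and 12.9 CPM at E15.

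FAPs had 7 members at that level, and all 7 were highest at E18, again with no share over all genes beside this count. At E23 against E13, 2 were lower past 2-fold, HOXA3 (log2 ratio -1.67) and HOXA5 (-1.05), where 4.51% of all genes were, and 0 were higher, where 6.55% were. HOXA7 (0.70) and HOXA9 (-0.02) stayed within 2-fold. Against E15 instead, 1 member was lower past 2-fold, where 3.61% of all genes were, and 0 were higher, where 9.93% were. HOXD11, below the level for this count, was at 4.15 CPM at E13 (95% Poisson interval 3.42 to 4.98) and 1.26 CPM at E23 (0.830 to 1.83), and its values at E15 and E18 lay between. Intervals and floors here cover counting error only. Summed over all HOX genes, E18 was the peak in FAPs and myocytes (166 and 279 CPM) and E15 in satellite cells (496 CPM).

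**Figure D4:**
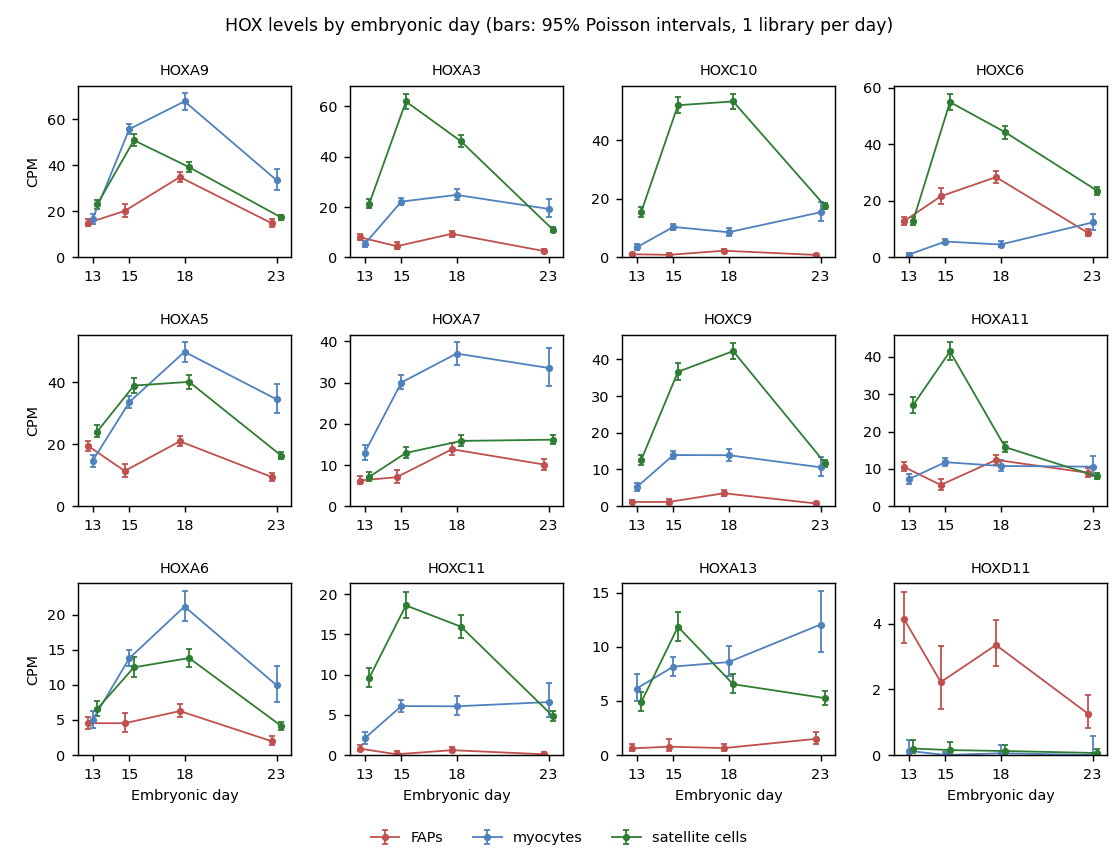
CPM (vertical axes, each from 0) by embryonic day (horizontal axes) of the 10 members with the highest class means and of HOXA13 and HOXD11, in FAPs, myocytes and satellite cells, with bars for 95% Poisson intervals of the counts and 1 library per day. HOXC10 was at most 2.28 CPM in FAPs, against 52.0 and 53.3 CPM in satellite cells at E15 and E18, and HOXD11 was at 1.26 to 4.15 CPM in FAPs.

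Levels per cell were compared after each cell was thinned to 4000 UMIs. At least 1 HOX UMI was then found in 31.9% of 5069 FAPs (95% exact binomial interval 30.6 to 33.2), 49.9% of 8426 myocytes (48.8 to 51.0) and 57.2% of 11476 satellite cells (56.3 to 58.1), pooled over libraries. These intervals treat cells as independent and leave out the spread over libraries. By library the shares were 23.5% to 41.4% in FAPs, 29.2% to 58.5% in myocytes and 42.6% to 76.5% in satellite cells. At E13 the share of FAPs (30.8%) was above that of myocytes (29.2%). Immune cells, which came from another lineage, were set beside these classes and showed a HOX UMI in 8.21% of 280 cells (5.28 to 12.1), below each of the 3 classes. Of these immune cells 154 were from E23 and 10 from E15. Whether their HOX UMIs came from the cells themselves or from RNA outside them was not tested. Without thinning the shares were 67.9% of FAPs, 69.9% of myocytes, 79.2% of satellite cells and 15.1% of immune cells. HOXC10 after thinning was found in 0.353% of FAPs, 3.71% of myocytes and 19.5% of satellite cells at E15. Shares of single genes are given for 1 library only and need not hold on other days. At E23 the level of HOXC10 was 15.4 CPM in myocytes and 17.5 CPM in satellite cells. In immune cells HOXC10 was found in 0 of 280 over the 4 libraries (95% exact binomial interval up to 1.31%). HOXA9 was found in 8.11% of FAPs, 18.2% of myocytes and 16.8% of satellite cells at E15, with 1.43% of immune cells over the 4 libraries. HOXD11 was found in 1.38% of FAPs at E13, against 0.0535% of myocytes and 0.0779% of satellite cells.

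HOX proteins bind DNA with partners of the TALE homeodomain family, the PBX, MEIS and PKNOX proteins, and 7 genes of this list were measured. In FAPs against satellite cells 1 was higher and 2 lower, in myocytes against satellite cells 2 were lower, and in FAPs against myocytes 3 were higher and 3 lower. Of all tested genes 19.8% were higher and 19.7% lower in the first of these contrasts, 24.0% and 24.0% in the second, and 32.1% and 32.7% in the third, so counts out of 7 say nothing particular about this list. MEIS2, a marker of the proximal limb bud, was at 63.9, 60.2, 41.7 and 33.2 CPM in FAPs, 2.20, 1.93, 0.858 and 1.45 CPM in myocytes, and 6.02, 15.3, 4.00 and 3.22 CPM in satellite cells. The 3 classes did not overlap, with log2 fold changes of 3.13 ± 0.27 for FAPs and -1.90 ± 0.30 for myocytes over satellite cells (edgeR adjusted p = 0.000139 and 0.00122). PKNOX1 and PKNOX2 were lower in FAPs than in satellite cells (-1.01 ± 0.17 and -1.04 ± 0.16, edgeR adjusted p = 0.00217 and 0.00161). PBX4 was lower in myocytes (-0.39 ± 0.07, edgeR adjusted p = 0.00237), and PBX3 was lower in FAPs than in myocytes (-0.76 ± 0.16, edgeR adjusted p = 0.00293).

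HOX clusters are kept silent by Polycomb proteins and active by trithorax proteins, and 18 genes of these complexes and of the demethylases that oppose Polycomb were tested. In FAPs against satellite cells 3 were higher and 4 lower, in myocytes against satellite cells 2 were higher and 7 lower, and in FAPs against myocytes 6 were higher and 5 lower. Over all tested genes the shares higher and lower were 19.8% and 19.7%, 24.0% and 24.0%, and 32.1% and 32.7% in the same contrasts, so for both contrasts with FAPs the counts were near those of all genes. Whether the counts in myocytes against satellite cells differ from those of all genes was not tested. RNF2, a ubiquitin ligase of a Polycomb complex, was lower in myocytes than in satellite cells (log2 fold change -1.80 ± 0.26, edgeR adjusted p = 0.000791), as were PCGF2 (-1.21 ± 0.22), WDR5 (-0.80 ± 0.09), EED (-0.44 ± 0.10), KMT2A (-0.37 ± 0.10), CBX2 and CBX7. BMI1 (0.45 ± 0.11) and KDM6A (0.25 ± 0.08) were higher there, the call of KDM6A being lost when any 1 library was left out. In FAPs against satellite cells EED (0.59 ± 0.10) and WDR5 (0.34 ± 0.09) were among the higher genes, and EZH1 (-0.93 ± 0.18), CBX2 (-0.64 ± 0.13), CBX7 (-1.96 ± 0.28) and KDM6A (-0.47 ± 0.08) were lower, and the call of WDR5 was lost without E15 or E18. RING1 was lower and CBX8 higher in FAPs against myocytes. EZH2, the main Polycomb methyltransferase, averaged 109 CPM in FAPs, 105 CPM in myocytes and 138 CPM in satellite cells and passed in no contrast, nor did JARID2.

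Genes of limb identity were set beside the HOX genes. TBX4, a hindlimb transcription factor, was at 13.2, 8.12, 7.42 and 7.61 CPM in FAPs, 0.646, 0.0495, 0.0536 and 0 CPM in myocytes, and 0.396, 0.189, 0.122 and 0.0820 CPM in satellite cells, so it shared with HOXD11 a level in FAPs above both myogenic classes in each library (log2 fold change against satellite cells 5.84 ± 0.48, edgeR adjusted p = 0.000111). Like HOXD11, TBX4 passed the filter on low counts only through FAPs, so this call is no separate support. PITX1, which acts upstream of TBX4 in the hindlimb, averaged 48.8 CPM in FAPs, 18.0 CPM in myocytes and 38.2 CPM in satellite cells, and was higher in FAPs than in myocytes (1.53 ± 0.32, edgeR adjusted p = 0.00272). TBX5, the forelimb counterpart, was at most 0.290 CPM in FAPs and at 0 in myocytes and satellite cells.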

How the data were processed

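The authors deposited raw UMI counts per gene and barcode for 4 libraries, filtered to called cells. The labels name Cell Ranger 7.1.0 with STAR, and the file headers name Cell Ranger 9.0.0. All 25487 symbols match a goose assembly other than the one named in the study's methods, so no coordinates are given, and the annotation of that other assembly was used for gene order and overlap only. The study's methods give another number of pooled embryos than the labels. Sample titles all carry day 13 before the stage, so the age field was used.

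A barcode was kept if it had between 300 and 6500 genes, between 1000 and 50000 UMIs, and no more than 20% of UMIs from 13 mitochondrial genes. The highest scrublet scores (scanpy 1.11.5) were removed at 0.8% per 1000 barcodes, which left 13857, 10401, 10227 and 9988 cells. Gates were set on UMI counts. No cell passed the gate for Schwann cells. The deposited counts of the cells of a class were added up within each library, and levels are CPM of these sums. Sums were tested with edgeR 4.0.16 (quasi-likelihood, TMM, filterByExpr with a minimum count of 10, BH adjustment), and again with DESeq2 1.42.0. Library was a block, because the classes of a library come from 1 pool, and deviations of its classes correlated (r from 0.387 to 0.761 over 6440 genes). In simulated sums of FAPs and satellite cells over 14598 genes, 89 of 100 genes changed by 1 (log2) and 96 of 100 changed by 2 were called, with 9 false calls. The simulation gave every gene the same spread, and library effects that the classes shared. Its rates therefore may not hold for members with wider errors. HOXA11, at -1.00 ± 0.45 for FAPs over satellite cells, was not called (edgeR adjusted p = 0.109). The libraries hold pooled embryos of different days, and the block takes out what the classes of a library share. The p-values thus measure how the differences between classes vary over these 4 libraries.

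Levels of different genes were added and ranked as UMI counts, which depend on the annotated 3′ end of each gene. Members with a class mean of at least 10 CPM were given in each library, and members called in a contrast or past 2-fold between days were named. The HOX genes, cofactors, chromatin regulators and limb genes were chosen with earlier results of these data known. Alternatives were another scaling, no filter, no block, only the compared classes, no doublet step, stricter gates, thinning to 4000 UMIs and each library left out. No protein or promoter sequences were used. A few genes of these lists are counted but not reported here by name, in the text or the figures.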

Additional observations from a re-analysis of the deposited data

How the results depend on the processing

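Over all alternatives, 836 log2 fold changes of members kept their direction and their side of the threshold, 70 lost the call, 32 gained it and 16 changed sign. Of the counts, 75 stayed within 1.5 times and 27 moved. In FAPs against satellite cells the count of higher members was 2 with DESeq2 or with no filter on low counts, 3 with only the compared classes or with no doublet step, and 0 of 17 after thinning (0 at an unadjusted p under 0.05), where HOXD11 was too low to test. Leaving out a library gave 1 to 2 higher. In myocytes against satellite cells 5 members were lower with no replicate block, 5 of 17 after thinning, and 0 to 12 with a library left out (0 without E15, 1 without E18), while 1 to 3 were higher. In FAPs against myocytes 3 were higher with no replicate block or with stricter gates, 1 with only the compared classes or after thinning, and 2 to 6 with a library left out. Leaving out the block changed no other count of members by over 1.5 times. The shares of all tested genes called under these alternatives are not given, here or beside the counts above, so such counts describe the members only.

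Signs changed for uncalled members only. For FAPs over satellite cells, with a library left out, HOXC4 ran from -0.28 (without E13) to 0.23, and HOXD4 from -0.67 to 0.16 (above 0 without E15 or E18, 0.088). For FAPs over myocytes, HOXA2 ran from -0.64 to 0.034 (above 0 without E15, E18 or E23) and was at 0.36 with stricter gates. HOXA11 ran from -0.26 to 0.10 (without E15), and was at 0.15 with stricter gates and 0.13 after thinning. HOXD3 was at -0.0082 with no replicate block and -0.15 with no doublet step, and ran from -0.32 to 0.76 with a library left out (below 0 without E15 or E23). HOXD10 was at -0.080 with no replicate block and -0.24 with no doublet step. The causes were not tested.

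Between days, starting at E15 left 1 lower member in FAPs, 1 higher in myocytes, and 15 lower and 0 higher in satellite cells. A minimum of 1 CPM gave 1 higher and 6 lower in FAPs, 1 lower in myocytes and 2 higher in satellite cells, and TMM scaling 0 higher in satellite cells. The filter on low counts left 11 members untested. Summed HOXB in FAPs came to 0.835 CPM after thinning, against 0.567 CPM.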

Other observations

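Small cell groups outside the 3 classes were described only. Endothelial cells (36 cells with at least 2 UMIs of KDR and of PECAM1, and 0 of PAX7 and MYOG) held 233 HOX UMIs, or 638 CPM. HOXD9 led them at 162 CPM (95% Poisson interval 123 to 208), followed by HOXB7 at 76.7 CPM (51.0 to 111) and HOXD3 at 63.0 CPM (39.9 to 94.5). In the 3 classes above, HOXD9 was at most 8.13 CPM, HOXB7 at most 2.27 CPM and HOXD3 at most 2.91 CPM in a library. The endothelial UMIs came mainly from E18 and E23 (72 and 147 of 233), so they describe late libraries.

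Cartilage cells (66 cells with at least 2 UMIs of ACAN and of COL9A1, 64 of them at E13) led with HOXA5 and HOXA11, at 70.2 CPM each (50.1 to 95.6), then HOXA9 at 66.7 CPM (47.2 to 91.5) and HOXB9 at 54.4 CPM (37.0 to 77.2). At E13 HOXB9 was at 53.1 CPM in cartilage cells (35.6 to 76.3), against 0.289 CPM in FAPs, a gap that was not tested. TBX4 was at 91.6 CPM in the cartilage cells of E13.

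A long noncoding RNA gene that lies between HOXB9 and HOXB13 in the annotation, LOC106048322, was named after its values were seen. It was at 1.88, 1.26, 1.18 and 0.327 CPM in FAPs at E13, E15, E18 and E23, 5.10, 23.7, 10.2 and 10.4 CPM in myocytes, and 27.3, 160, 94.7 and 15.5 CPM in satellite cells, above each HOX gene in satellite cells at E15 and E18. The log2 fold change was -5.36 ± 0.64 for FAPs over satellite cells, -2.12 ± 0.54 for myocytes over satellite cells and -3.24 ± 0.62 for FAPs over myocytes (edgeR adjusted p = 0.000531, 0.0119 and 0.00177). The call in myocytes over satellite cells was lost without E15 or E18, with an adjusted p of up to 0.0812.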
